A study of Homo sapiens with 8 samples.

Results

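The response of H1299 cells to 5-azacytidine (5azaC) was examined on 4 Clariom S arrays of a series of 8, the 2 labelled 5azaC and the 2 labelled as its controls. H1299 is a human non-small cell lung carcinoma line. The treated cells were grown with the drug for 120 h and the controls without it at the same passage, with 2 biological replicates in either group. The labels state a dose of 10 mM, whereas the methods state 10 μM, and the files do not settle which was used. All cells were cultured in the same RPMI1640 medium with serum, and the labels do not tie a treated replicate to a control replicate of the same number, although the methods name a paired test. Of 24351 entries in the table, 21448 were gene probe sets and all of them were compared, of which 17709 carried 1 gene symbol and 3739 are unnamed here. Values are log2 signals, so that a difference of 1 is a 2-fold change. An array has no true zero, and a probe set was called above background where its signal exceeded the 95th percentile of the array's own negative controls, 612 in number. Genes that the study had already listed as higher after both of its treatments (the shared list below) are left aside except where a gene list contains them.

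5azaC is a cytidine analog that is incorporated into RNA and, after reduction, into DNA, where it traps DNA methyltransferases and so lowers methylation as cells divide. ATF4 is a transcription factor whose translation increases when the initiation factor eIF2 is phosphorylated, as happens under amino acid shortage or when proteins misfold. It switches on genes for amino acid synthesis, amino acid uptake and tRNA charging, together with the stress regulators DDIT3 (CHOP) and TRIB3. Many of the genes that moved most belong to this program.

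At an adjusted p under 0.05 in limma, 71 probe sets were higher after 5azaC (0.331% of all) and 157 were lower (0.732%). In measured signals every one of these differed by at least 2.32-fold, and the largest changes were falls. Where a group lay below background, only a bound or no fold is given below, and such a bound can be smaller. Among named genes, 55 were higher with a median log2 fold change of 1.43 and 144 were lower with a median of -1.58. The median of all probe sets was 0.05. Of the 55, 35 were above background in both groups, 8 have a bound and 12 lay below background in both. Of the 144, these numbers were 103, 26 and 9, and the rest have neither fold nor bound. Both medians include the genes below background. By the same measured signals, changes above 4-fold were found in 35 genes that were lower and in 3 that were higher. Some of these, such as PCK2, RAB39B and ANKRD1, lay below background in a group. None of the 144 lower genes and 20 of the 55 higher genes were in the study's shared list. Neither group's arrays overlapped with the other's for any called gene, but with 2 arrays against 2 this held for 28.1% of all probe sets in the higher direction and 22.2% in the lower. When the dimmest 33.3% of probe sets were left out, 384 of 14298 were higher (2.69%) and 499 were lower (3.49%). With the replicate number as a block, 2 probe sets were higher and 20 lower, all of them among the 228. Leaving out either 5azaC array or either control array left 0 to 2 higher and 12 to 14 lower, and 10 genes were called whichever array was left out, namely CHAC1, TRIB3, PCK2, DDIT4, SESN2, DDIT3, SLC7A11, ASNS, RAB39B and MAT2A.

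**Figure D1:**
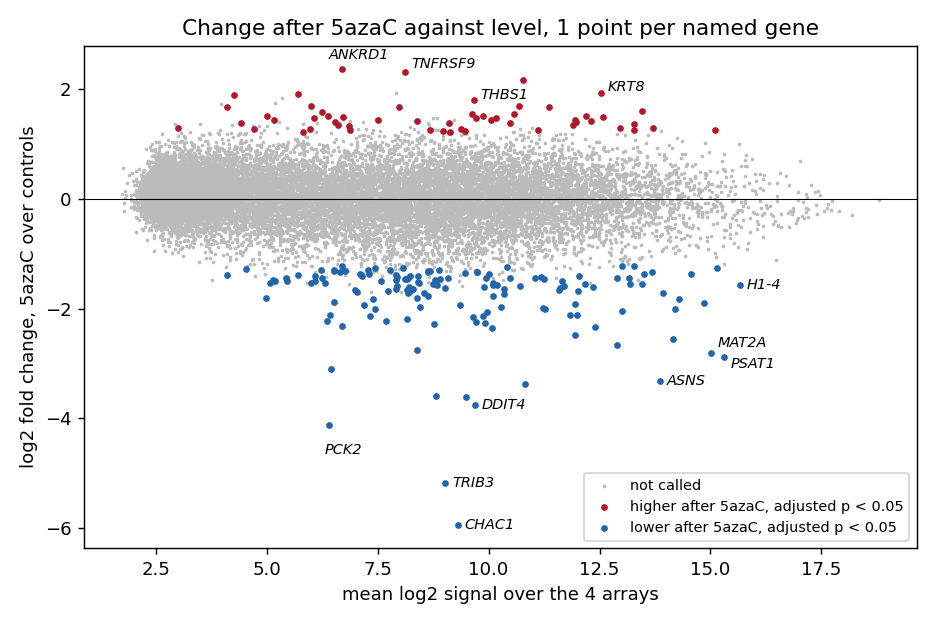
Log2 fold change of 5azaC over controls (y axis) against the mean log2 signal over the 4 arrays (x axis), 1 point per named gene. The 144 genes lower after 5azaC reach -5.95 (CHAC1), whereas the 55 higher genes reach 2.37 (ANKRD1).

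The steepest falls were in the regulators and effectors of the ATF4 response. CHAC1, which degrades glutathione, had log2 signals of 6.19 and 6.47 in 5azaC-treated cells, against 12.50 and 12.06 in controls. Both treated arrays lay below background, so that CHAC1 was at least 35.95-fold lower (adjusted p = 0.000514 from limma). TRIB3, a pseudokinase induced by stress, had signals of 6.80 and 6.08 in 5azaC-treated cells, against 11.79 and 11.45 in controls, and was at least 22.7-fold lower (adjusted p = 0.0018). DDIT4, an inhibitor of the growth kinase mTORC1, had 8.03 and 7.58 after 5azaC and 11.55 and 11.59 in controls. This was a 13.6-fold fall with a log2 fold change of -3.76 (SE 0.23, adjusted p = 0.0018). SESN2, a sestrin that restrains mTORC1, had 7.52 and 7.84 after 5azaC and 11.22 and 11.38 in controls and was 12.3-fold lower. DDIT3, the CHOP transcription factor, had 7.03 and 7.02 after 5azaC and 10.68 and 10.55 in controls and was 12.1-fold lower, with 1 of the 2 treated arrays above background. The treated and control arrays of these genes were separated by several times the distance between replicates. CEBPG, a partner of ATF4 on DNA, was 5.58-fold lower (adjusted p = 0.00821), and STC2, a secreted glycoprotein, was 4.89-fold lower (adjusted p = 0.00963). CEBPB, another C/EBP factor, was at least 3.25-fold lower. ATF4 itself, singled out after its values were seen, had 13.13 and 13.001 after 5azaC and 14.85 and 14.70 in controls, a log2 fold change of -1.71 (SE 0.21). Of 23 measured members of this list, 12 were lower, against 0.732% of all probe sets, and none was higher in limma, with 14 lower and 1 higher at an unadjusted p under 0.05, a threshold that 9.16% of all probe sets passed in the lower direction and 10.2% in the higher. The median of the list was -1.42, and with bounds in place of folds for 5 members, and without those below background in both groups, it was -1.70 over 19. With the replicate block, 8 members passed. The kinases that phosphorylate eIF2 (EIF2AK1 to EIF2AK4) were not called, with log2 fold changes between -0.34 and 0.59.

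Enzymes of serine, asparagine and proline synthesis fell as well. ASNS, asparagine synthetase, had log2 signals of 11.86 and 12.53 in 5azaC-treated cells, against 15.66 and 15.38 in controls (log2 fold change -3.32, SE 0.28, adjusted p = 0.00821). PSAT1, an aminotransferase of serine synthesis, had 14.10 and 13.62 after 5azaC and 16.90 and 16.59 in controls and was 7.40-fold lower. PHGDH, which catalyses the first step of that pathway, had 8.70 and 8.49 after 5azaC and 10.84 and 10.83 in controls and was 4.73-fold lower. PYCR1, which completes proline synthesis, was 4.46-fold lower. The abundant transcripts ASNS and PSAT1 thus remained far above background after treatment. Of 21 measured enzymes of this list, 10 were lower and none higher in limma, against 0.732% and 0.331% of all probe sets. At an unadjusted p under 0.05 in limma, 12 were lower and none higher, against 9.16% and 10.2% of all probe sets. The median was -0.85. Others of the 10 were the one-carbon enzymes MTHFD2, SHMT2, MTHFD1L and ALDH1L2. PSPH, GLUL, GOT2 and ALDH18A1 were not called, with log2 fold changes of -0.49, 0.09, 0.02 and -0.03.

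Amino acid transporters were lower in 7 of 22 measured cases and higher in none, against 0.732% and 0.331% of all probe sets. At an unadjusted p under 0.05 in limma, 11 were lower and 3 higher, against 9.16% and 10.2% of all probe sets. The median of the list was -0.65. SLC7A11, the cystine importer of system xc-, had log2 signals of 9.18 and 9.07 in 5azaC-treated cells, against 12.38 and 12.62 in controls, and was 10.4-fold lower (adjusted p = 0.0018). SLC6A9, a glycine transporter, had 6.46 and 7.56 after 5azaC and 10.00 and 9.53 in controls. Of its treated arrays 1 was above background. SLC7A5, which carries large neutral amino acids such as leucine, had 11.88 and 11.24 after 5azaC and 14.29 and 14.18 in controls and was 6.38-fold lower. SLC3A2, the heavy chain that pairs with SLC7A5 and SLC7A11, had 12.72 and 13.02 after 5azaC and 15.43 and 15.44 in controls and was 5.91-fold lower (adjusted p = 0.00834). Both partners of these carriers were therefore lower on every treated array. SLC1A4, the arginine carrier SLC7A1 and SLC38A1 were also called, SLC38A1 at a log2 fold change of -1.38. SLC1A5 and SLC38A2 were not called, at log2 fold changes of -0.75 and -0.56.

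Of 16 cytosolic aminoacyl-tRNA synthetases, which join amino acids to their tRNAs, 5 were lower, against 0.732% of all probe sets. The median over the list was -1.05. SARS1, for serine, had log2 signals of 11.29 and 11.18 in 5azaC-treated cells, against 13.69 and 13.46 in controls, and was 5.05-fold lower (adjusted p = 0.00963). AARS1, YARS1 and IARS1 (for alanine, tyrosine and isoleucine) were 4.02-, 2.94- and 2.73-fold lower. Of the 16, 13 had a negative log2 fold change. At an unadjusted p under 0.05 in limma, 11 were lower and 1 higher, against 9.16% and 10.2% of all probe sets. KARS1 had a log2 fold change of 0.40 and RARS1, the arginine enzyme, one of 1.01, which passed without the dimmest probe sets (7 lower and 1 higher in that fit).

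Several genes outside these lists were lower as well. MAT2A, which makes S-adenosylmethionine, the methyl donor of DNA methyltransferases, had log2 signals of 13.68 and 13.53 in 5azaC-treated cells, against 16.50 and 16.34 in controls, and was 7.04-fold lower (SE 0.21 on the log2 scale, adjusted p = 0.0052). PCK2, the mitochondrial phosphoenolpyruvate carboxykinase, had 4.22 and 4.46 after 5azaC and 8.75 and 8.19 in controls. RAB39B, a small GTPase, had 5.18 and 4.61 after 5azaC and 8.04 and 7.97 in controls. The treated arrays of both lay below background, so that PCK2 was at least 2.56-fold lower and RAB39B at least 1.86-fold lower. GTPBP2, a GTPase linked to the rescue of stalled ribosomes, was 5.14-fold lower (adjusted p = 0.00963). Across the 4 lists above, 34 of 82 different measured genes were lower and none was higher, against 0.732% and 0.331% of all probe sets. This leaves 110 lower named genes outside them.

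**Figure D2:**
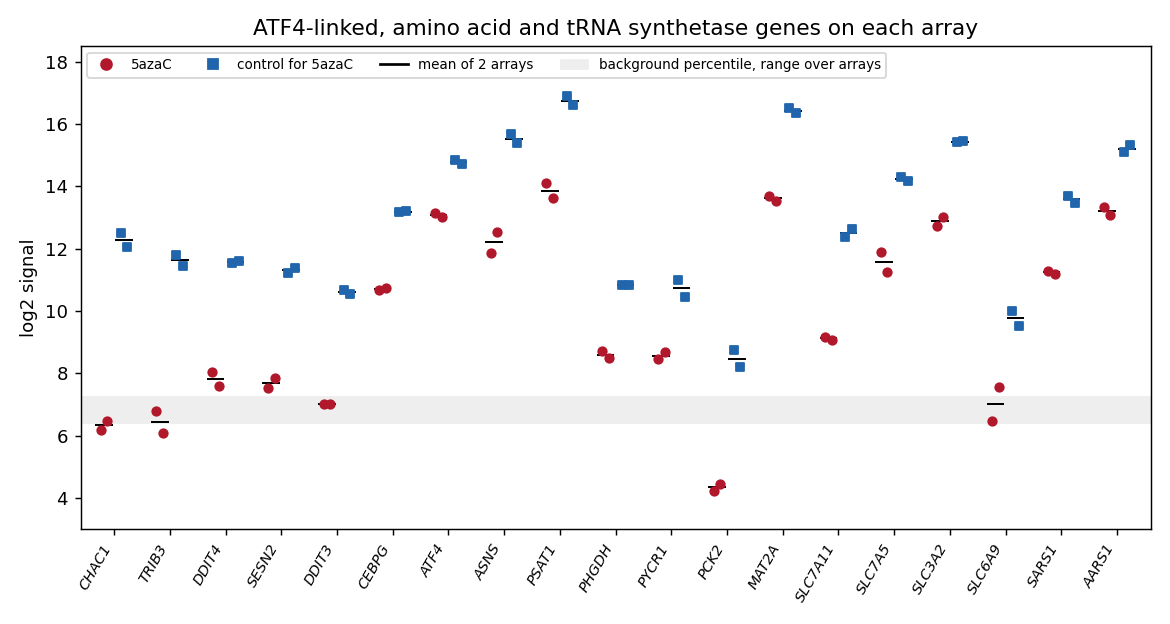
Log2 signal (y axis) on each of the 2 5azaC arrays (circles) and 2 control arrays (squares) for genes linked to ATF4, amino acids and tRNA charging, with the mean of each pair as a line and the range of the background percentile shaded. For all of these genes both treated arrays lie below both control arrays, with CHAC1, TRIB3 and PCK2 below background after 5azaC.

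The DNA element bound by ATF4 with its C/EBP partners can be written TGATGNAA, or TTNCATCA on the opposite strand. It was searched in RefSeq promoters (build GRCh38.p14, 250 bases before to 50 after the first listed start of each gene), which were matched to 14250 of the measured genes. The letters were found in 14 of 118 lower genes with a promoter (11.9%), in none of 42 higher genes and in 2.52% of all. Among genes above background the shares were 12.7% of 110 lower genes and 1.66% of all. Of the 14 genes, 10 belonged to the 4 lists above, and the others were HERPUD1, DNASE2, RSL24D1 and TBL1X. Of 69 promoters of these lists 16 held the letters, and 10 of the 16 were among the 29 promoters of members called lower. The letters thus also lay in list members that were not called. The share among lower genes was not separated from membership in the lists. A match describes the letters in this window only, and many of the lower genes, PSAT1 and TRIB3 among them, have none there. The sites of 8 lower genes of the 4 lists above are shown on the strand of the gene, with the matched letters in capitals. They set the same letters side by side in genes of different function.
CHAC1 (chr15:40953251-40953280, + strand): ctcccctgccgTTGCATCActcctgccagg
ASNS (chr7:97872458-97872487, - strand): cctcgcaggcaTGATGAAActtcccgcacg
GOT1 (chr10:99430804-99430833, - strand): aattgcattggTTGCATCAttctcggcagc
MTHFD1L (chr6:150866346-150866375, + strand): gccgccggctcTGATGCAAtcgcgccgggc
SLC7A1 (chr13:29595663-29595692, - strand): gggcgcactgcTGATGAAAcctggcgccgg
SLC38A1 (chr12:46266502-46266531, - strand): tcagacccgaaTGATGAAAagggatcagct
AARS1 (chr16:70289675-70289704, - strand): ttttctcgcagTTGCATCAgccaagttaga
IARS1 (chr9:92293692-92293721, - strand): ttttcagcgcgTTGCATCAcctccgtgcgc
Among the sites shown, the form TTGCATCA recurs in CHAC1, GOT1, AARS1 and IARS1, genes for glutathione breakdown, aspartate transamination and the charging of 2 tRNAs. MTHFD1L, a one-carbon enzyme, holds the same form on the opposite strand, written TGATGCAA. The sites of HERPUD1, RSL24D1 and TBL1X, which are not shown, have TTGCATCA as well.

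Falls were also found in genes of other functions. CLDN1, a claudin of tight junctions, had log2 signals of 11.27 and 10.62 in 5azaC-treated cells, against 13.09 and 13.03 in controls, and was 4.31-fold lower (adjusted p = 0.0269). VEGFA, the angiogenic growth factor, had 9.26 and 9.32 after 5azaC and 11.38 and 11.16 in controls and was 3.94-fold lower (adjusted p = 0.0168). It was the only called member of 32 genes of the hypoxia response and glycolysis, whose median was 0.05. RNPS1, a splicing protein of the exon junction complex, was 4.81-fold lower, and VPS28, a subunit of the ESCRT-I sorting complex, at least 4.39-fold lower. TNFRSF10B, a receptor for the death ligand TRAIL, was 2.92-fold lower (adjusted p = 0.0303). The lysosomal protease CTSD and the autophagosome protein MAP1LC3B were 2.99- and 2.95-fold lower, the called members of 34 genes of autophagy and lysosome. SREBF1, a regulator of lipid synthesis, was 2.34-fold lower (adjusted p = 0.0479). Lipid genes as a whole were not lower. The list of 19 genes of fatty acid synthesis and desaturation had a median of 0.12, and its member FABP5, in the shared list, was called higher. Of 22 genes of cholesterol synthesis, 17 had a positive log2 fold change, with a median of 0.34, or 0.25 without those in the shared list. None of the genes of this paragraph passed with the replicate block, where the adjusted p of CLDN1 was 0.0647 and that of VEGFA 0.06.

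Immediate early genes, which growth factor signaling through ERK induces quickly, leaned downward. EGR1, a zinc finger factor, had log2 signals of 9.08 and 9.08 in 5azaC-treated cells, against 10.83 and 10.55 in controls, and was 3.06-fold lower (adjusted p = 0.0303). DUSP6, a phosphatase that inactivates ERK, had 10.65 and 10.29 after 5azaC and 11.82 and 11.98 in controls and was 2.69-fold lower. IER2 and ATF3 were 2.86- and 2.68-fold lower, ATF3 with 1 of 2 treated arrays above background. ATF3 is also counted among the lower members of the ATF4 list above. Of 29 measured members, 4 were lower and none higher in limma. At an unadjusted p under 0.05, 14 were lower and 1 higher in limma, against 9.16% and 10.2% of all probe sets. Without the dimmest probe sets 8 were lower, among them MYC, JUN, ETV5 and SPRY4. The median of the list was -0.45. FOS and NR4A2 lay below background in both groups, and FOSL2 and KLF6 had log2 fold changes of 0.13 and 0.14.

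Of 9 measured genes for linker histones, which bind the DNA between nucleosomes, 4 were lower, against 0.732% of all probe sets. The other 5 were not called, 3 of the 5 being below background in both groups. H1-4 had log2 signals of 15.04 and 14.72 in 5azaC-treated cells, against 16.59 and 16.30 in controls, and was 2.96-fold lower (adjusted p = 0.038). H1-3 had 7.95 and 7.57 after 5azaC and 9.55 and 9.50 in controls and was 3.39-fold lower (adjusted p = 0.0286). H1-2 had 9.72 and 9.83 after 5azaC and 11.25 and 11.17 in controls and was 2.71-fold lower. The testis variant H1-6 was called but lay below background in both groups, so no fold is given. Over all 68 measured histone genes, 56 had a negative log2 fold change and 12 a positive one, with a median of -0.41. At an unadjusted p under 0.05 in limma, 27 of the 68 were lower and none higher, against 9.16% and 10.2% of all probe sets. Only linker histones were called in the fit of all probe sets, while H3C10, H2AC8 and H2BC21 passed as well without the dimmest probe sets. Histone genes are near-identical copies in clusters, and their probe sets may share signal.

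Among the rises, ANKRD1, an ankyrin repeat protein and target of the YAP coactivator, had log2 signals of 7.73 and 8.03 in 5azaC-treated cells, against 5.43 and 5.59 in controls. Its controls lay below background, and it was at least 2.29-fold higher (adjusted p = 0.0105). TNFRSF9, the costimulatory receptor 4-1BB, had 9.46 and 9.09 after 5azaC and 7.30 and 6.63 in controls and was 4.95-fold higher (adjusted p = 0.0254). These were the 2 genes that passed in the higher direction with the replicate block (adjusted p = 0.0491 and 0.0494). THBS1, the matrix glycoprotein thrombospondin 1, had 10.57 and 10.57 after 5azaC and 9.02 and 8.52 in controls and was 3.47-fold higher (adjusted p = 0.0303). ANKRD1 and THBS1 were the called members of 22 YAP/TEAD targets, of which 11 had a positive and 11 a negative log2 fold change, so the list as a whole was not shifted.

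KRT8 and KRT18, the keratins that pair in simple epithelia, rose together. KRT8 had log2 signals of 13.67 and 13.32 in 5azaC-treated cells, against 11.42 and 11.70 in controls, and was 3.82-fold higher (SE 0.23 on the log2 scale, adjusted p = 0.0254). KRT18 had 12.57 and 12.56 after 5azaC and 11.23 and 11.21 in controls and was 2.54-fold higher (adjusted p = 0.0405). VIM, the mesenchymal filament protein, stayed abundant, with 15.43 and 15.33 after 5azaC and 15.81 and 15.71 in controls (log2 fold change -0.38, adjusted p = 0.368). Of 24 keratin and junction genes, 13 lay below background in both groups. In limma 2 of the 24 were higher and 1, CLDN1, was lower, against 0.331% and 0.732% of all probe sets. At an unadjusted p under 0.05 in limma, 4 were higher and 2 lower, against 10.2% and 9.16% of all probe sets.

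The remaining rises fell into no single list. NAV3, a neuron navigator protein, had log2 signals of 8.98 and 8.67 in 5azaC-treated cells, against 7.06 and 7.24 in controls, and was 3.19-fold higher. TFPI2, an imprinted gene for a serine protease inhibitor, had 13.23 and 13.41 after 5azaC and 11.64 and 11.999 in controls and was 2.83-fold higher (adjusted p = 0.0407), the only called member of 18 imprinted genes. CEMIP2, a cell surface hyaluronidase, was 2.70-fold higher, with 1 of 2 control arrays above background. WEE1, the kinase that restrains CDK1, was 2.36-fold higher, PIK3R1, a regulatory subunit of phosphoinositide 3-kinase, 2.38-fold, and ATAD2, a bromodomain ATPase, 2.38-fold. RNF145, a ubiquitin ligase of the endoplasmic reticulum, and SCML1, a Polycomb-related protein, were both 2.61-fold higher. LOX, which cross-links collagen, and AOX1, aldehyde oxidase, lay below background in controls and were at least 1.51- and 1.47-fold higher. The largest falls went further than these rises, but the medians of all called genes were of similar size (1.43 for the higher and -1.58 for the lower). None of the rises of this paragraph passed with the replicate block.

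**Figure D3:**
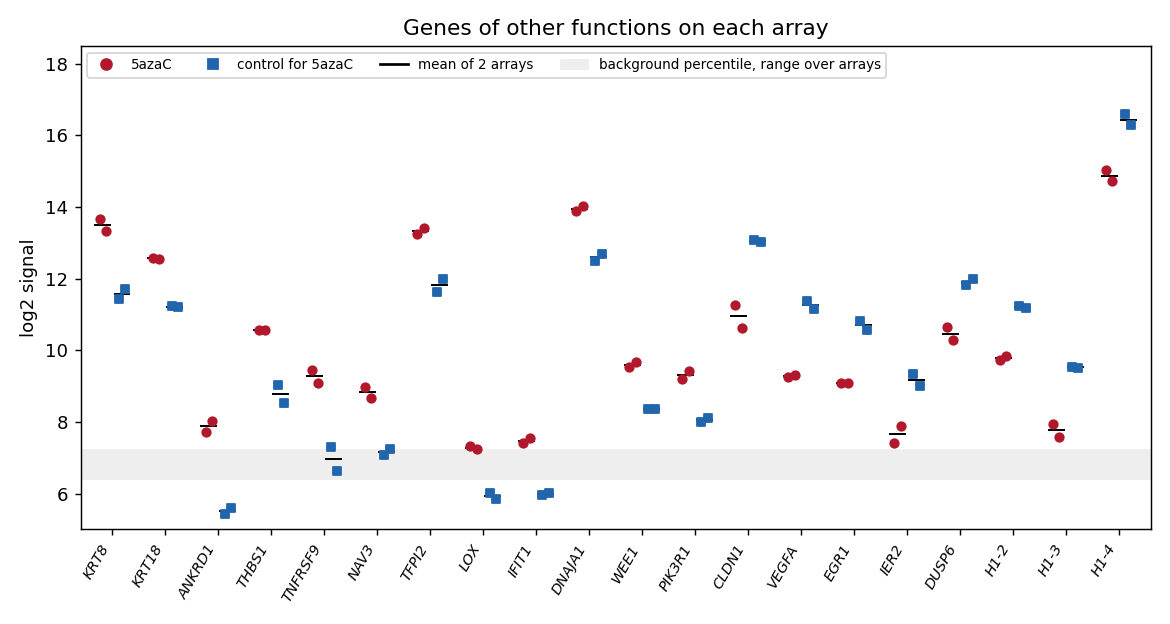
Log2 signal (y axis) on each of the 2 5azaC arrays (circles) and 2 control arrays (squares) for genes of other functions, with the mean of each pair as a line and the range of the background percentile shaded. KRT8, KRT18 and the other rises lie higher on both treated arrays, and CLDN1, VEGFA, EGR1, IER2, DUSP6 and the linker histones lie lower.

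Heat shock proteins, which fold proteins and hold them in solution under heat and other stress, were higher in 5 cases. Outside the shared list, DNAJA1, an HSP40 co-chaperone, had log2 signals of 13.89 and 14.02 in 5azaC-treated cells, against 12.51 and 12.69 in controls, and was 2.56-fold higher (adjusted p = 0.0432). Of 24 measured members of the list, 5 were higher and none lower, against 0.331% and 0.732% of all probe sets, with a median of 0.67. The other 4 called members, HSPA1A, HSPE1, CHORDC1 and HSPH1, were all in the shared list, which was chosen on these arrays for being higher and is no independent evidence, and without them the median was 0.61. At an unadjusted p under 0.05 in limma 15 were higher and 1 was lower. Without the dimmest probe sets, 8 were higher, 4 of them outside the shared list. Not every chaperone moved, with BAG3 at -0.04, HSPB1 at 0.20 and the mitochondrial HSPA9 at -0.81, and none of the 12 subunits of CCT and prefoldin was called (4 higher and 1 lower at an unadjusted p under 0.05, against 10.2% and 9.16% of all probe sets). Of 27 genes of folding and degradation in the endoplasmic reticulum, none was higher in limma (2 higher and 7 lower at an unadjusted p under 0.05). HERPUD1, which acts in degradation there, was 3.02-fold lower (adjusted p = 0.035), and the median was 0.03. The reticulum's HSP70 HSPA5 and HYOU1 were not called, with log2 fold changes of -1.19 and -1.05. Both passed without the dimmest probe sets, a fit in which 3 of the 27 were lower and none higher. The heat shock element, searched as GAANNTTCNNGAA on either strand after the values were seen, was found in the promoters of 2 of 42 higher genes, none of 118 lower genes and 0.386% of all, and both sites are shown with the match in capitals.
DNAJA1 (chr9:33025268-33025296, + strand): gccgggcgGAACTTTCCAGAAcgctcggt
CHORDC1 (chr11:90223089-90223117, - strand): cgcgaccgGAAAATTCGCGAAggttcctg

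Genes of mitosis leaned upward, and in bulk RNA more cells in mitosis and more RNA per cell cannot be told apart. Of 56 measured genes of the spindle, kinetochore and cytokinesis, 50 had a positive log2 fold change, with a median of 0.68 against 0.05 for all probe sets. In limma 3 were higher and none lower, all 3 in the shared list. At an unadjusted p under 0.05 in limma, 36 were higher and none lower, against 10.2% and 9.16% of all probe sets. Without the dimmest probe sets, 18 were higher (2.69% of all probe sets in that fit), of which 8 were outside the shared list, whose 10 members here were chosen on these arrays for being higher and are no independent evidence. Without those 10 the median was 0.56. The kinase TTK, the kinesin KIF11 and the regulator FOXM1 had log2 fold changes of 0.51, 0.61 and -0.32, none of which was called. Of 43 genes of the replication origin and fork, 33 had a positive log2 fold change with a median of 0.44. None was called in limma, with 19 higher and 1 lower at an unadjusted p under 0.05 and 7 higher without the dimmest probe sets. Among G1 regulators, CCNE2 (cyclin E2), already in the shared list, was the only called member of 25. CDKN1A and CCND3 had log2 fold changes of 1.26 and 1.01 (adjusted p = 0.0619 and 0.0768 from limma). CCNB1, a mitotic cyclin, had one of 1.03 (adjusted p = 0.0666). All 3 are in the shared list too, and all 3 passed without the dimmest probe sets. In that fit 5 of the 25 were higher, 1 of them outside the shared list, and 1 was lower. Over all probe sets, 8 were higher and 3 lower at an unadjusted p under 0.05. No member of these 3 lists passed with the replicate block.

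No DNA methyltransferase above background was called. DNMT1, the maintenance methyltransferase, had log2 signals of 9.10 and 8.80 in 5azaC-treated cells, against 8.73 and 8.73 in controls (log2 fold change 0.22, SE 0.22, 95% interval from -0.28 to 0.73, adjusted p = 0.636). DNMT3A, a de novo methyltransferase, had 9.49 and 9.45 after 5azaC and 9.75 and 9.68 in controls (adjusted p = 0.567). UHRF1, which brings DNMT1 to replicated DNA, had 11.11 and 11.29 after 5azaC and 10.81 and 10.75 in controls (adjusted p = 0.33). DNMT3B, the other de novo enzyme, had 6.39 and 6.44 after 5azaC and 5.28 and 5.13 in controls. It was called (adjusted p = 0.0494) but lay below background in both groups, so no fold is given. The median of 17 genes that write, read or erase DNA methylation was -0.01.

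Germline genes are kept silent by promoter methylation in most somatic cells. Of 46 cancer/testis and germline genes, 31 lay below background in both groups and none was called in limma, with 6 higher and 2 lower at an unadjusted p under 0.05 (10.2% and 9.16% of all probe sets) and a median of 0.08. MAGEA1 and MAGEA3 were well above background already in controls, MAGEA3 with 11.10 and 10.78 after 5azaC and 10.73 and 10.63 in controls. Of 33 interferon-stimulated genes, 21 lay below background in both groups, 2 were higher and none lower in limma (8 higher and 2 lower at an unadjusted p under 0.05, against 10.2% and 9.16% of all probe sets), and the median was 0.16. One of the called genes, SAMD9L, lay below background in both groups, so no fold is given. IFIT1, an antiviral RNA-binding protein, had 7.40 and 7.54 after 5azaC and 5.95 and 6.005 in controls and was at least 1.73-fold higher (adjusted p = 0.0331). IFIT3 passed without the dimmest probe sets (4 higher in that fit), but MX1, OAS1 and ISG15 lay below background in both groups. The letters GAAANNGAAA of the interferon response element, searched on either strand after the values were seen, were in 17 of 26 promoters of this list, against 3.11% of all, and in 1 of 42 promoters of higher genes (2.38%), that of IFIT1, where 1 of 2 nearby matches is shown in capitals on the strand of the gene.
IFIT1 (chr10:89392497-89392526, + strand): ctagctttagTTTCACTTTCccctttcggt

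Few genes of large complexes were called. Of 49 cytosolic ribosomal protein genes, 46 had a negative log2 fold change, with a median of -0.29, but none was called in limma (8 lower and 1 higher at an unadjusted p under 0.05, against 9.16% and 10.2% of all probe sets). Of 73 mitochondrial ribosomal protein genes, 53 were negative, with a median of -0.24, and 1 was called, MRPS16, which was 2.59-fold lower (19 lower and 3 higher at an unadjusted p under 0.05, and 4 lower without the dimmest probe sets). Subunits of the proteasome, which degrades proteins, had 35 of 44 positive, a median of 0.29 and none called in limma (15 higher and 2 lower at an unadjusted p under 0.05), with 3 higher without the dimmest probe sets. The 66 nuclear-encoded subunits of the respiratory chain had a median of -0.05, with 30 positive and 36 negative.

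**Figure D4:**
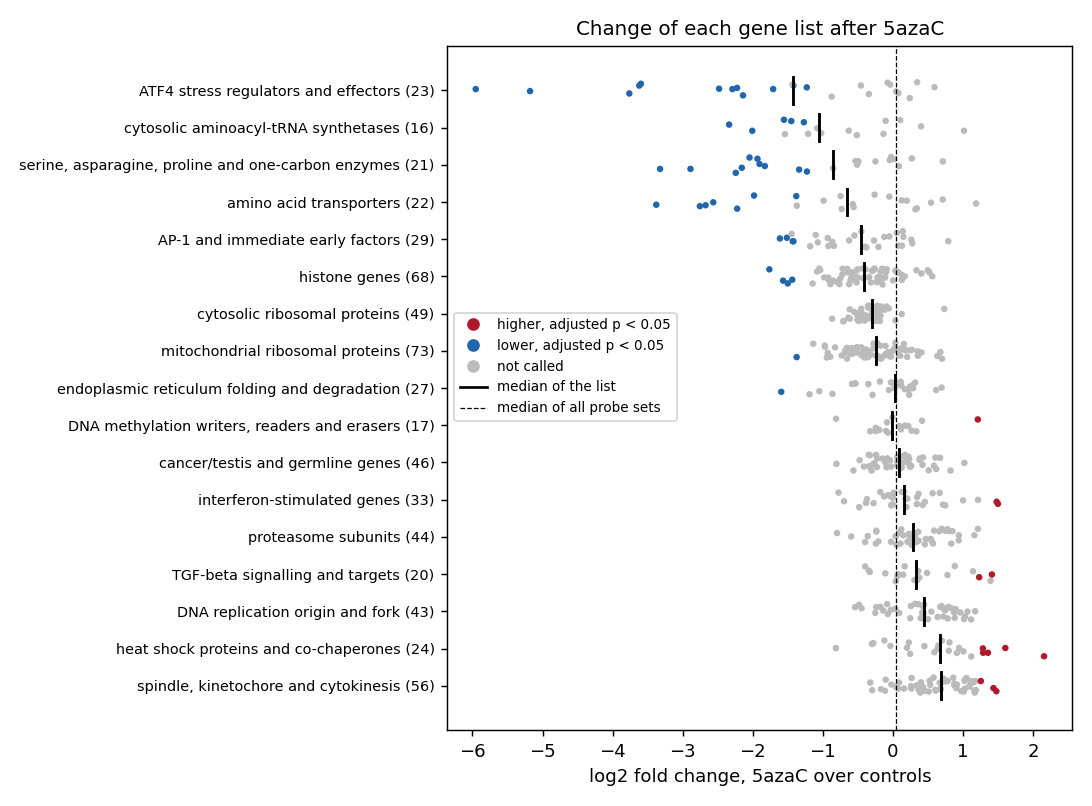
Log2 fold change of 5azaC over controls (x axis) for each measured member of 17 gene lists (rows, with the number measured), with the median of each list as a thick line and the median of all probe sets dashed. The 4 lists of ATF4 and amino acid genes hold most of the large falls and have medians from -1.42 to -0.65, whereas spindle genes have the highest median, 0.68.

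The lower genes were shorter than most. The gene span, from first to last base of the gene in RefSeq, had a median of 25.8 kb in 55 higher genes, 14.3 kb in 144 lower genes and 25.9 kb in all named genes. Among genes above background in a group it was 23.4 kb in higher genes, 13.98 kb in lower genes and 33.5 kb in all. When genes above background in both groups were divided into 5 groups of equal size by log2 fold change, the median span was 21.9, 31.1, 36.5, 41.4 and 45.4 kb from the most negative group to the most positive. The median log2 signal of these groups ran between 9.53 and 9.87, highest in the second, and its part in this order was not tested. The comparison was chosen after the values were seen and is a description across genes, which are not replicates. Promoters of the called genes held similar numbers of CG dinucleotides, the bases that DNA methyltransferases act on, with a median of 25.5 per 300 bases in higher genes, 26 in lower genes and 22 in all. Among genes above background the medians were 26, 26 and 27.

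**Figure D5:**
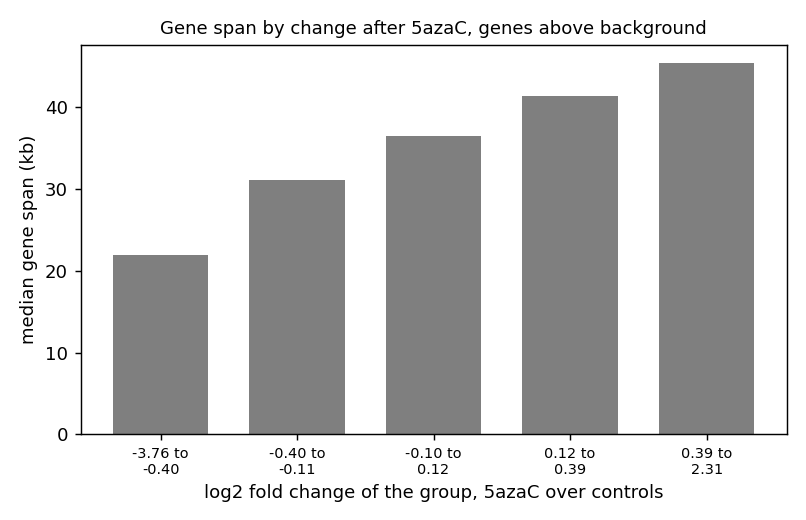
Median gene span in kilobases (y axis) of genes above background in both groups, in 5 groups of equal size by log2 fold change of 5azaC over controls (x axis, range of each group). The bars rise from 21.9 kb in the most negative group to 45.4 kb in the most positive.

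The arrays were alike in overall level, with median log2 signals of 5.87 and 5.86 for 5azaC and 5.85 and 5.85 for controls. The background percentile was 6.998 and 7.23 on 5azaC arrays and 6.97 and 6.40 on control arrays, and 39.9% to 46.1% of probe sets exceeded it. On both 5azaC arrays and neither control array 17 probe sets were above background, against 314 the other way round. These counts move with the percentile, which was lowest on the second control array, and do not compare the numbers of genes switched on and off. The hybridization spikes bioB, bioC, bioD and cre, added in fixed amounts, were 0.32 to 0.46 higher on 5azaC arrays on the log2 scale, and their part in the changes was not tested. The keratins KRT8 and KRT18 and VIM were abundant in all 4 samples. All 16 lung epithelial lineage markers, all 7 endothelial markers, 11 of 12 blood cell markers (all but CD68) and 8 of 12 neuroendocrine markers lay below background in both groups. Of the other neuroendocrine markers, CHGB, SCG2 and GRP were near background and UCHL1, a ubiquitin hydrolase, was abundant. UCHL1 had log2 signals of 15.89 and 15.83 in 5azaC-treated cells and 16.25 and 15.99 in controls. None of the 12 was called in limma. At an unadjusted p under 0.05 in limma, 1 was higher and 3 lower, against 10.2% and 9.16% of all probe sets.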

How the data were processed

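RNA of H1299 cells had been hybridized to Clariom S arrays. Per the labels and methods, Affymetrix Expression Console 1.4 was used by the authors for Signal Space Transformation and RMA, and the deposited values are log2 signals. The genome build of the probe sets: not given in the sources used here. RMA compresses changes near background. Of 24351 entries, 2903 were controls and 21448 were tested. A gene with several probe sets is represented by the brightest on average over these 4 arrays. Symbols came from a platform table.

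The 4 arrays were fitted with limma 3.58.1 in R 4.3.3 (lmFit and eBayes, 2 groups, no block, 2 residual and 5.41 prior degrees of freedom), with Benjamini-Hochberg adjustment over all probe sets and a threshold of 0.05. The methods name a paired test. The labels do not tie replicate numbers, and same-numbered deviations had a correlation of 0.0289 across all probe sets and 0.138 across the 9974 above background, over 2 pairs. The block was kept as an alternative. P-values combine the spread between 2 cultures per group with a prior spread estimated over all probe sets, which holds most of the degrees of freedom. The small number of arrays limits the precision. Where both arrays of 1 group lay below the background percentile, the fold is a bound without error, taken against the higher of that percentile and the measured signal, while its adjusted p comes from the measured values.

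Named genes were the 25 largest rises and 25 largest falls outside the study's shared list that were called and above background on both arrays of a group (fewer where fewer qualified), genes passing with the block, up to 4 called members of each of 49 gene lists (the first 2 where none was called), and DNA methyltransferases, UHRF1 and the cyclins and inhibitor the study follows. Other members are named after their values were seen. The lists, the rule and the choice of the fit without a block were made with earlier results of these data known. Alternatives were the block, all 8 arrays, t-tests, normalizations, filters, thresholds and leaving out each array. The fit was tested on simulated data.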

Additional observations from a re-analysis of the deposited data

How the results depend on the processing

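The counts of called probe sets differed widely between alternatives, for which the cause was not tested. Against 71 higher and 157 lower, the replicate block gave 2 and 20, all 8 arrays without a block 398 and 491 and with a block 111 and 212 (the lower count within 1.5 times), leaving out probe sets below background on all 4 arrays 738 and 998, leaving out the dimmest 33.3% 384 and 499, and eBayes with trend and robust settings 788 and 962. An adjusted p under 0.01 gave 0 and 18, and one under 0.1 gave 470 and 557, while at an unadjusted p under 0.05 limma gave 2197 and 1964. The methods' t-test after Benjamini-Hochberg gave 1 and 2, and an unpaired t-test 0 and 0, or 230 and 316 at an unadjusted p under 0.05 and 2-fold. With 1 array left out the counts were 0 to 2 higher and 12 to 14 lower, the lone array being assumed to vary like the other pair. Quantile normalization, median centring, the 2-fold minimum and the methods' t-test with its unadjusted threshold kept both counts within 1.5 times. Of the 228 probe sets, 206 also passed with 8 arrays and the block and 224 without the dimmest 33.3%. Of the 130 named genes none reversed under any alternative, and 64 calls were lost with the block, 71 to 74 with an array left out and 86 with either t-test after Benjamini-Hochberg. The background crossing at the 90th and 99th percentile gave 49 and 2 probe sets above background in 5azaC only, and 718 in controls only at the 99th. Medians of the lists of endoplasmic reticulum folding, DNA methylation, YAP/TEAD targets, hypoxia and respiratory chain genes changed sign under some alternatives, to between -0.06 and 0.14, whereas those of the ATF4, amino acid, spindle and heat shock lists kept theirs. With 2 arrays a group, the smallest change called was 2.32-fold in measured signals, whether or not these were above background.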
